A study of Mus musculus with 16 samples.

Results

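The genes described here are 9 Wnt ligands (Wnt3, Wnt3a, Wnt5a, Wnt5b, Wnt8a, Wnt11, Wnt4, Wnt6 and Wnt2b), out of 19938 genes with a probe set of their own on the array. They were listed by name, with earlier results of these data known. Each was read from its single-symbol probe set of highest mean over all arrays. All 9 were among the 18716 genes tested. RNA levels were measured on 16 arrays (Affymetrix Mouse Gene ST 1.0), 2 for each of 8 groups, and the labels call the 2 biological replicates. Every group came from a mouse embryonic stem cell (mESC) line that carries 1 reporter allele each of T (TGFP/+) and Foxa2 (Foxa2tagRFP/+). Foxa2 marks endoderm and T, or Brachyury, marks the primitive streak and early mesoderm. Cells positive for Foxa2 were sorted by the surface protein CD24 into F+CD24high cells (definitive endoderm, DE) and F+CD24low cells (definitive endoderm progenitors, DEP), both at days 4 and 2 (D4 and D2). T-positive cells were sorted into T+CD24neg cells (mesoderm, MES) at D4 and T+CD24low cells (mesoderm progenitors, MP) at D4 and D2. Undifferentiated mESCs (ES) were not sorted, and were grown with serum and leukemia inhibitory factor on mouse embryonic fibroblasts. The F+ cells were induced with 12 ng/ml activin A. The T+ cells were induced with 7.5 ng/ml Bmp4 and 3 ng/ml activin A, added to the endoderm medium, and it is not clear from the protocol whether that medium still held its own activin A. All sorted cells had grown on feeder cells that express Wnt3a, so every sorted group had an outside source of this ligand. The lineages also differed in medium, and DE and MES in the CD24 gate as well, so between F+ and T+ cells these cannot be told apart. The labels name the line as E14.1 of strain 129/Ola and the study's methods name it as G4.

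Wnt ligands are secreted lipid-modified proteins. In the canonical branch they bind Frizzled receptors with Lrp5 or Lrp6, which stabilizes β-catenin and turns on targets through Tcf and Lef factors. In the non-canonical branch, for which Wnt5a and Wnt11 are best known, they act through Frizzled, Ror and other receptors on cell polarity and movement. In the mouse gastrula, canonical Wnt signalling is needed to form the primitive streak, from which mesoderm and definitive endoderm arise.

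The deposited values were log2 values after robust multichip averaging (RMA), and the medians of the arrays lay between 7.42 and 7.49. Replicates correlated at 0.989 to 0.995 over all probe sets. Different probe sets bind their targets to different degrees, so each gene is compared with itself across groups and no ligand's level is set against another's. Each set of lineage markers was highest in the population named for it, DE or MES. The summed linear value of 8 definitive endoderm markers was 23879 to 30794 on the DE arrays and 1294 to 1309 on the ES arrays. It did not separate the lineages in full, with 6651 to 6761 in MES D4 and 5328 to 5377 in DEP D2. The 8 markers include Foxa2, on which the F+ cells were sorted. The sum of 9 mesoderm markers was 17222 to 18026 in MES and 1780 to 2019 in ES. The sorting genes are not read as results. Fibroblast markers (23 genes) summed to 3398 to 7753 on the sorted arrays and to 16671 to 21492 on the ES arrays, and for 15 of the 23 both ES arrays lay above every sorted array. A gene was called higher or lower in a comparison when its log2 fold change was above 1 or below −1 and its adjusted p was under 0.05 (limma, Benjamini–Hochberg over 32000 probe sets). The p-values measure the spread between 2 replicates, pooled over the 8 groups. In these bulk samples, fewer cells that express a ligand and less RNA of it per cell cannot be told apart.

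Of the 9 ligands, 4 were called in at least 1 of the 18 comparisons: Wnt3, Wnt5a, Wnt8a and Wnt11. Of all genes tested, 19% were called in at least 1 of them. The ligands and the pathway lists were chosen with earlier results of these data known. Their counts beside the shares over all genes or probe sets are therefore descriptions and no test of them as a set. Wnt5a had the widest range of group means, 5.32 on the log2 scale, wider than for 99.9% of the genes tested. The ranges were 3.89 for Wnt8a (wider than for 99.1%), 2.90 for Wnt3 (97.4%) and 1.70 for Wnt11 (91.5%). Those of Wnt3a, Wnt2b and Wnt5b were 1.08, 0.90 and 0.83, and those of Wnt6 and Wnt4 were 0.36 and 0.27, wider than for 35.9% and 19.9% of the genes tested.

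**Figure D1:**
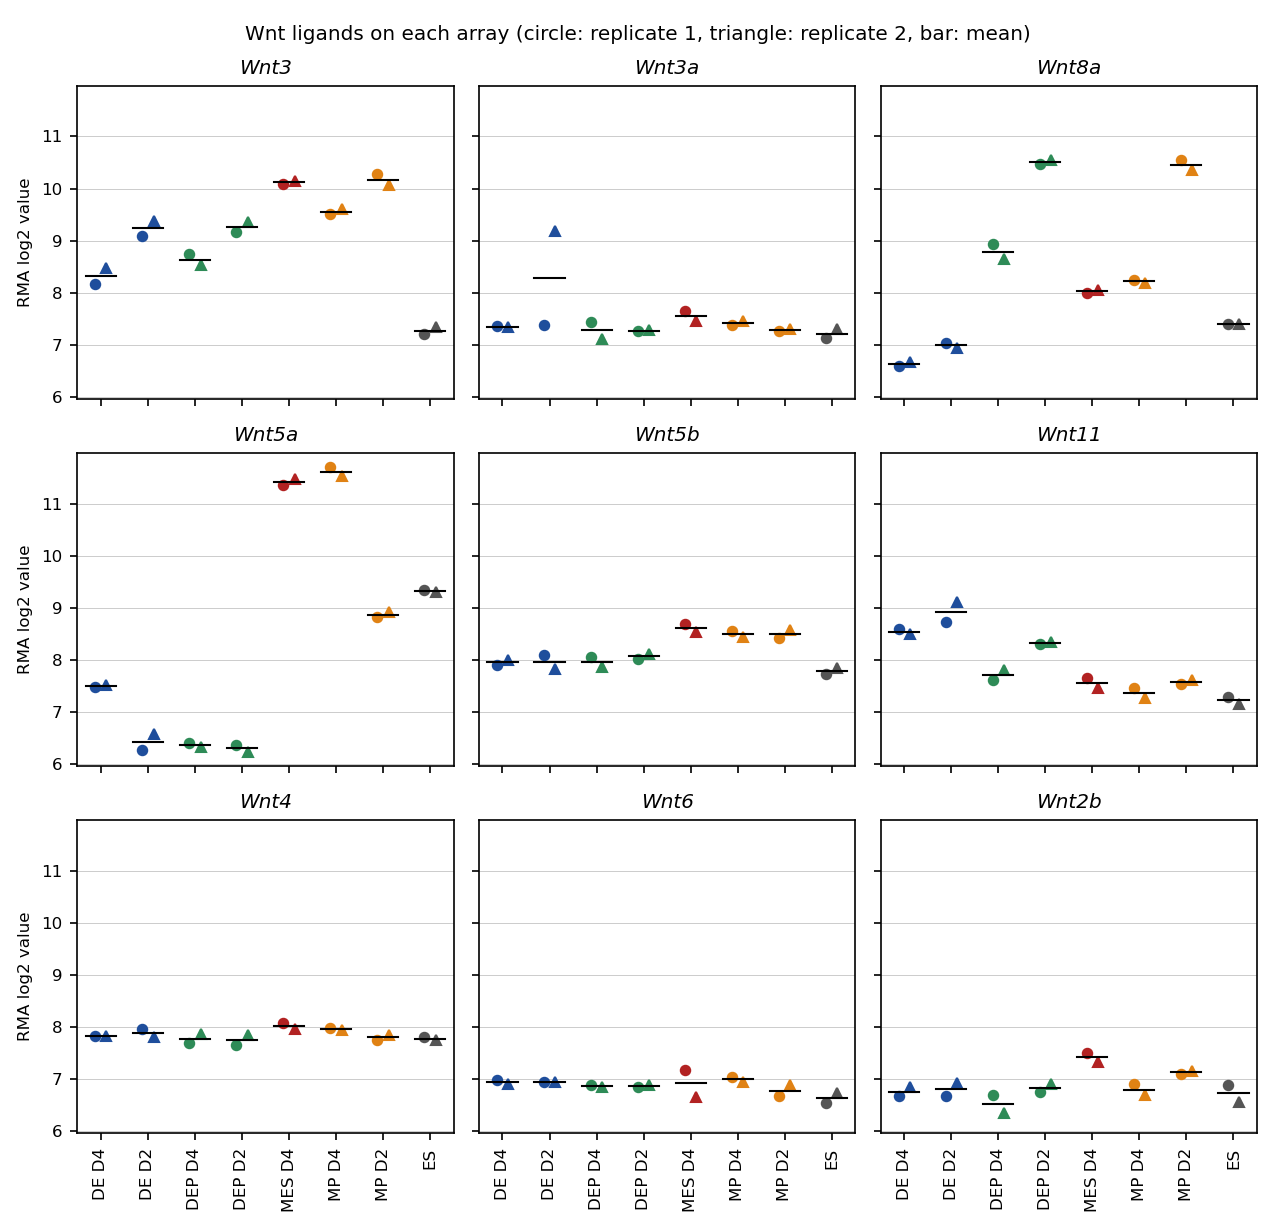
RMA log2 value (vertical axis) of each Wnt ligand on each of the 16 arrays, by sorted population and day (horizontal axis), with replicate 1 as a circle, replicate 2 as a triangle and the mean of both as a bar. Wnt5a spans 6.23 to 11.70 over the arrays, Wnt8a 6.59 to 10.55 and Wnt3 7.21 to 10.27, while Wnt4 stays between 7.65 and 8.07.

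Wnt3 is the canonical ligand that the mouse embryo needs to form a primitive streak. Its values were 8.16 and 8.47 in DE D4, 9.09 and 9.38 in DE D2, 8.74 and 8.53 in DEP D4, and 9.16 and 9.36 in DEP D2. They were 10.09 and 10.15 in MES D4, 9.51 and 9.60 in MP D4, 10.27 and 10.07 in MP D2, and 7.21 and 7.33 in ES. Every sorted array was above both ES arrays, and at each day every T+ array was above every F+ array. Wnt3 was higher than in ES in all 7 sorted populations, from a log2 fold change of 1.04 ± 0.14 (SE) in DE D4 (adjusted p = 1.37e-04, limma) to 2.90 ± 0.14 in MP D2 (adjusted p = 1.30e-07, limma). The call in DE D4 rested on the threshold, since the log2 fold change was 0.98 without ES replicate 1 and 0.89 without DE D4 replicate 2.

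Between the lineages, Wnt3 was 3.49-fold lower in DE D4 than in MES D4 (log2 fold change −1.80 ± 0.14, adjusted p = 2.45e-06, limma). In the progenitors the log2 fold change was −0.92 ± 0.14 at D4 (adjusted p = 0.00108, limma) and −0.91 ± 0.14 at D2 (adjusted p = 0.00458, limma) for DEP minus MP. Both missed the threshold on the fold change by less than 0.1, and the groups did not overlap on either day. The D4 difference passed at −1.03 without DEP D4 replicate 1, and the D2 difference at −1.02 without DEP D2 replicate 2 and −1.01 without MP D2 replicate 2. The difference between DEP and MP had the same size on both days (change with the day −0.01 ± 0.20, 95% interval −0.44 to 0.42). Between the days, D4 minus D2 was −0.92 ± 0.14 in DE (adjusted p = 0.00263, limma), −0.62 ± 0.14 in DEP (adjusted p = 0.0955, limma) and −0.61 ± 0.14 in MP (adjusted p = 0.0225, limma), and the value in DE passed at −1.07 without replicate 1 of DE D2 or replicate 2 of DE D4. From the highest mean down, MP D2 and MES D4 did not differ beyond their spread (0.05, adjusted p = 0.946, limma), nor did DEP D2 and DE D2 (0.02, adjusted p = 0.961, limma).

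The start of Wnt3 was searched for motifs of the pathway's own factors and of the 2 factors used for sorting. The motifs were a Tcf/Lef motif (CTTTGAA or CTTTGAT), a Foxa motif (TGTTTAC) and a T-box motif (AGGTGTG), on both strands of the 250 bases before each start in RefSeq (GRCm38.p6). These tables matched 7 of the 9 ligands, Wnt5a and Wnt8a not being among them, with 10 start sites. None of the motifs occurred in the window of Wnt3 (chr11:103773925-103774174, plus strand), which is shown because Wnt3 was higher in every sorted population than in ES. Of all 32851 such windows, 4.46% held CTTTGAA, 3.21% CTTTGAT, 3.17% TGTTTAC and 5.1% AGGTGTG, 14.9% held any of them, and 0.0335% held motifs that overlap each other.
Wnt3: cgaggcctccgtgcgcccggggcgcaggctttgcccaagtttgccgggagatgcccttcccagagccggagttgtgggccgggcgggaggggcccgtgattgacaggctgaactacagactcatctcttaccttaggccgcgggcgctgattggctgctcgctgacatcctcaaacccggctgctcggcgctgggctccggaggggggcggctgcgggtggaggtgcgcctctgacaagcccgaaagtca

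Wnt8a is a canonical ligand of the primitive streak and posterior epiblast. Its values were 6.59 and 6.67 in DE D4, 7.03 and 6.94 in DE D2, 8.93 and 8.65 in DEP D4, and 10.48 and 10.55 in DEP D2. They were 8.0 and 8.05 in MES D4, 8.25 and 8.19 in MP D4, 10.55 and 10.36 in MP D2, and 7.39 and 7.39 in ES. Both D2 progenitor populations stood high, with overlapping arrays, and all 4 DE arrays lay below ES. Wnt8a was higher than in ES in DEP D2 (3.12 ± 0.10, adjusted p = 9.41e-09, limma), in MP D2 (3.06 ± 0.10, adjusted p = 1.14e-08, limma) and in DEP D4 (1.40 ± 0.10, adjusted p = 3.51e-06, limma). The differences from ES were below the threshold on the fold change in MP D4 (0.83), MES D4 (0.63), DE D2 (−0.41) and DE D4 (−0.76), each with an adjusted p of 0.0135 or less (limma).

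The CD24 gate separated Wnt8a among the F+ cells. It was 11.5-fold lower in DE D2 than in DEP D2 (log2 fold change −3.53 ± 0.10, adjusted p = 2.86e-08, limma) and 4.47-fold lower in DE D4 than in DEP D4 (−2.16 ± 0.10, adjusted p = 1.80e-07, limma). The difference changed with the day by 1.37 ± 0.15 (adjusted p = 0.00157, limma). Among the T+ cells at D4, MES minus MP gave −0.19 (95% interval −0.42 to 0.03, adjusted p = 0.459, limma). In progenitors Wnt8a was lower at D4 than at D2, with a log2 fold change of −1.73 ± 0.10 in DEP (adjusted p = 4.34e-05, limma) and −2.23 ± 0.10 in MP (adjusted p = 1.18e-06, limma). In DE, D4 minus D2 was −0.36 ± 0.10 (adjusted p = 0.0665, limma).

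Between lineages at the same progenitor gate, Wnt8a differed little. DEP D2 minus MP D2 was 0.06 (95% interval −0.17 to 0.29), and DEP D4 minus MP D4 was 0.57 (0.34 to 0.80, adjusted p = 0.00402, limma), below the threshold on the fold change. DE D4 was 2.63-fold lower than MES D4 (−1.40 ± 0.10, adjusted p = 1.76e-06, limma). Pluripotency markers (8 genes) moved in part with Wnt8a, with summed values of 3550 to 4022 in DE D4, 9987 to 11765 in DE D2, 21172 to 22917 in DEP D4, 25167 to 25346 in DEP D2, 12782 to 13191 in MES D4, 12585 to 13247 in MP D4, 22998 to 23353 in MP D2 and 35550 to 43175 in ES. ES had the highest marker sum and a Wnt8a level of 7.39, below all DEP and MP arrays. The part of pluripotent cells in the Wnt8a differences was not tested.

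Wnt3a is a canonical ligand that is needed for trunk and tail mesoderm in the mouse, and it was the ligand made by the feeders of the differentiation cultures. On 15 of the 16 arrays it lay between 7.12 and 7.65, and on replicate 2 of DE D2 it was 9.19, against 7.38 on replicate 1. This gap of 1.81 was the thirteenth largest among the genes that were higher on that array. No comparison of Wnt3a was called. DE D2 minus DEP D2 was 1.02 ± 0.40 (adjusted p = 0.153, limma), and DE D2 minus ES was 1.08 ± 0.40 (adjusted p = 0.0662, limma). Without replicate 1 of DE D2 these differences were 1.92 (adjusted p = 1.95e-05, limma) and 1.98 (adjusted p = 5.74e-06, limma), and without replicate 2 they were 0.11 and 0.17.

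Most fibroblast markers were higher on that array, the majority of them only slightly. Of the 23, 19 were higher on replicate 2 of DE D2 than on replicate 1, with a median difference of 0.22 against −0.02 for all genes tested. Of these, 4 differed by more than 1 (Col1a1, Col1a2, Lox and S100a4). Col1a2 and Lox were among the 15 markers for which both ES arrays lay above every sorted array, and Col1a1 and S100a4 were not. The rest of those 15 differed by −0.11 (Fbln2) to 0.33 (Col5a2), with Dcn at −0.0015, Thbs2 at 0.07 and Postn at 0.16. The collagen gene Col1a1 had 10.40 on replicate 2 and 8.14 on replicate 1. The fibroblast sum was 5595 on replicate 2 and 3398 on replicate 1. Their visceral endoderm marker sums (7 genes) were 2301.5 and 1048, and the gap of Cubn, an endocytic receptor of visceral endoderm, was 3.62. The part of feeder or other cells in this Wnt3a value was not tested.

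Wnt5a, the main non-canonical ligand of axis elongation in the mouse, separated the lineages most. Its values were 7.47 and 7.51 in DE D4, 6.27 and 6.57 in DE D2, 6.41 and 6.32 in DEP D4, and 6.37 and 6.23 in DEP D2. They were 11.36 and 11.47 in MES D4, 11.70 and 11.54 in MP D4, 8.81 and 8.92 in MP D2, and 9.34 and 9.29 in ES. All 4 T+ arrays of D4 were above ES, all 8 F+ arrays were below ES and below MP D2, and no T+ array overlapped an F+ array.

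At D4 the Wnt5a level of DEP was 38.1-fold lower than that of MP (log2 fold change −5.25 ± 0.11, adjusted p = 6.84e-10, limma) and 15.2-fold lower in DE than in MES (−3.92 ± 0.11, adjusted p = 1.93e-09, limma). At D2 the level of DEP was 5.92-fold lower than that of MP (−2.56 ± 0.11, adjusted p = 7.12e-07, limma). The difference between DEP and MP was wider at D4 than at D2 (change with the day −2.69 ± 0.16, adjusted p = 1.95e-05, limma). On the T+ side, Wnt5a was higher in MP D4 than in MP D2 by 2.75 ± 0.11 (adjusted p = 3.27e-07, limma), while DEP D4 minus DEP D2 was 0.06 (95% interval −0.18 to 0.31). MES D4 minus MP D4 was −0.20 (−0.44 to 0.04).

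**Figure D2:**
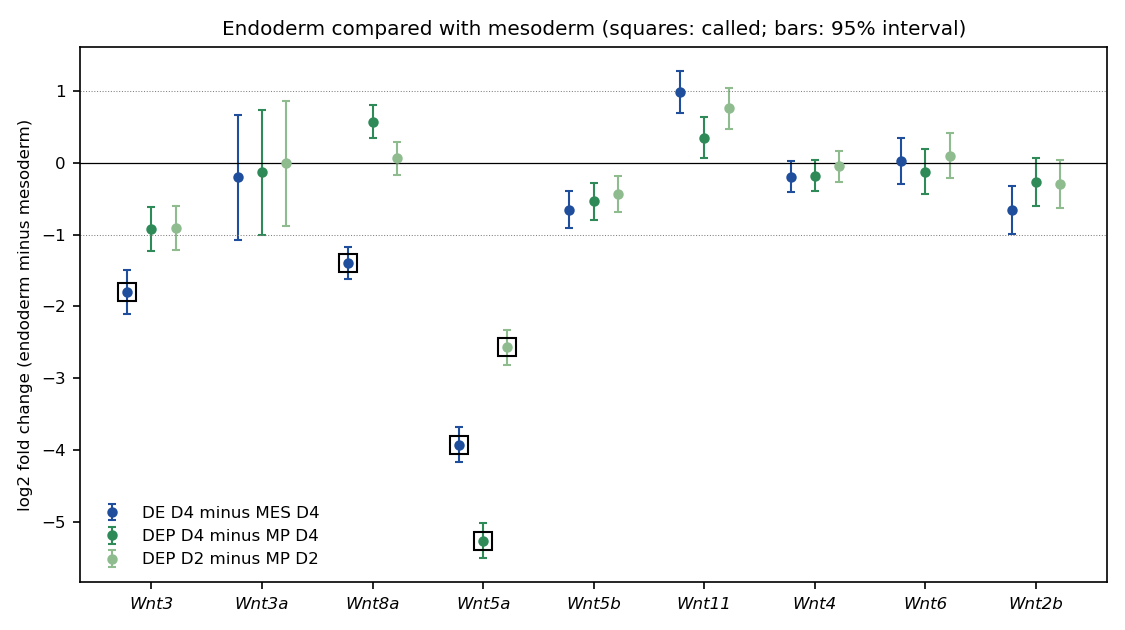
Log2 fold change of each Wnt ligand (vertical axis, endoderm minus mesoderm) for DE D4 minus MES D4, DEP D4 minus MP D4 and DEP D2 minus MP D2, with 95% intervals, dotted lines at 1 and −1 and squares around called values. Wnt5a lies at −3.92, −5.25 and −2.56, Wnt3 at −1.80, −0.92 and −0.91, and Wnt11 above 0 at 0.98, 0.35 and 0.75.

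Within the F+ cells, Wnt5a was higher in DE D4 than in DEP D4 (1.13 ± 0.11, adjusted p = 2.52e-05, limma) and than in DE D2 (1.07 ± 0.11, adjusted p = 2.36e-04, limma). At D2 the difference of DE from DEP was 0.12 (95% interval −0.13 to 0.36). The change of this difference with the day was 1.01 ± 0.16 (adjusted p = 0.0103, limma). Without replicate 1 of DE D2, the difference between the days in DE was 0.92 and its interaction with the gate 0.86, both under the threshold on the fold change. The interaction also lost its call without either replicate of DE D4, replicate 1 of DEP D2 or replicate 2 of DEP D4 (0.94 to 1.03, adjusted p of 0.0513 to 0.0566, limma). Visceral endoderm markers summed to 7599 to 7994 in DE D4 and to 754 to 2301.5 in the other groups, and their part in the DE D4 values was not tested.

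Against ES, Wnt5a was lower in all 4 F+ populations, with −1.83 ± 0.11 in DE D4 (adjusted p = 2.46e-07, limma) and −3.02 to −2.90 in DE D2, DEP D4 and DEP D2. It was higher in MP D4 (2.30 ± 0.11, adjusted p = 1.22e-07, limma) and in MES D4 (2.10 ± 0.11, adjusted p = 1.54e-07, limma), and MP D2 minus ES was −0.45 ± 0.11 (adjusted p = 0.0171, limma). Fibroblast marker sums stand beside these values: 3398 to 5595 in the F+ groups, 7697 to 7753 in MES D4, 7208 to 7429 in MP D4, 4357 to 4451 in MP D2 and 16671 to 21492 in ES. The 2 mesoderm groups with the highest Wnt5a had lower fibroblast sums than ES. The part of fibroblasts in the Wnt5a level of ES, and so in the differences from ES, was not tested.

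Wnt5b, the closest relative of Wnt5a, had values of 7.91 and 8.0 in DE D4, 8.09 and 7.82 in DE D2, 8.05 and 7.86 in DEP D4, and 8.01 and 8.11 in DEP D2. They were 8.68 and 8.54 in MES D4, 8.55 and 8.43 in MP D4, 8.42 and 8.58 in MP D2, and 7.72 and 7.84 in ES. All 6 T+ arrays were above all F+ and ES arrays, but no comparison was called. DE D4 minus MES D4 was −0.65 ± 0.12 (adjusted p = 0.00163, limma), DEP D4 minus MP D4 was −0.54 ± 0.12 (adjusted p = 0.0121, limma), and DEP D2 minus MP D2 was −0.44 ± 0.12 (adjusted p = 0.0937, limma). Against ES the T+ groups differed by 0.71 to 0.83 and the F+ groups by 0.17 to 0.28. Of the 3 start sites of Wnt5b, the one at chr6:119449387-119449636 (minus strand) held a Tcf/Lef motif and the reverse complement of a T-box motif, 71 and 45 bases before the start. It was the only window of these ligands with both, and the capitals mark them.
Wnt5b: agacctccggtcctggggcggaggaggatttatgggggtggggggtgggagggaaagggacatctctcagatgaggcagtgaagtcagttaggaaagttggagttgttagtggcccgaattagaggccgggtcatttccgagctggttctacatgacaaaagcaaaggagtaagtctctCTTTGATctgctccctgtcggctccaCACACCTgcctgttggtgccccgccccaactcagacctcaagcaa

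Wnt11, a non-canonical ligand best known from cell movements of the zebrafish gastrula, had its highest values in F+ populations. Its values were 8.58 and 8.49 in DE D4, 8.73 and 9.11 in DE D2, 7.61 and 7.80 in DEP D4, and 8.31 and 8.33 in DEP D2. They were 7.66 and 7.46 in MES D4, 7.46 and 7.26 in MP D4, 7.53 and 7.60 in MP D2, and 7.28 and 7.15 in ES. The DE arrays of both days and those of DEP D2 were above all T+ and ES arrays, while 1 of the DEP D4 arrays lay within the range of MES D4. Wnt11 was higher than in ES in DE D2 (1.70 ± 0.13, adjusted p = 2.86e-06, limma), in DE D4 (1.31 ± 0.13, adjusted p = 1.46e-05, limma) and in DEP D2 (1.10 ± 0.13, adjusted p = 1.63e-04, limma).

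In the 9 comparisons between sorted populations, no difference of Wnt11 passed the threshold on the fold change. DE D4 minus MES D4 was 0.98 ± 0.13 (adjusted p = 2.21e-04, limma), and it passed at 1.02 with arrays centred on their medians, at 1.03 without DE D4 replicate 2 and at 1.08 without MES D4 replicate 1. DE minus DEP was 0.83 ± 0.13 at D4 (adjusted p = 9.28e-04, limma) and 0.60 ± 0.13 at D2 (adjusted p = 0.0127, limma). DEP minus MP was 0.75 ± 0.13 at D2 (adjusted p = 0.0108, limma) and 0.35 ± 0.13 at D4 (adjusted p = 0.161, limma). Outside these 9, where lineage and CD24 gate both differ, Wnt11 was higher in DE than in MP on each day (1.36 ± 0.13 at D2, adjusted p = 3.42e-05, and 1.18 ± 0.13 at D4, adjusted p = 5.08e-05, limma). Of 2 start sites, the window at chr7:98834862-98835111 (plus strand) held the reverse complement of a Tcf/Lef motif 51 bases before the start, in capitals below, and the other window held none of the motifs. It is shown because Wnt11 and Wnt5b were the ligands with a Tcf/Lef motif in a window, and a match of letters says nothing of binding.
Wnt11: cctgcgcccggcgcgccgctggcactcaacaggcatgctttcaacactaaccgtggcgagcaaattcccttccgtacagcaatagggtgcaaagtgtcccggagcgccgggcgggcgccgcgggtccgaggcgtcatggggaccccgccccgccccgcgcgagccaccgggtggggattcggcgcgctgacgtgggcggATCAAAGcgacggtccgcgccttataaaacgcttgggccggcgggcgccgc

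Wnt4, a ligand known from kidney and gonad development, had values of 7.82 and 7.82 in DE D4, 7.95 and 7.81 in DE D2, 7.69 and 7.86 in DEP D4, 7.65 and 7.84 in DEP D2, 8.07 and 7.96 in MES D4, 7.98 and 7.94 in MP D4, 7.74 and 7.85 in MP D2 and 7.80 and 7.75 in ES. Its group means lay within 0.27 of each other, and none of its comparisons was called. A second probe set of Wnt4 gave DEP D4 minus MP D4 of −0.60 ± 0.13 (adjusted p = 0.0104, limma), below the threshold on the fold change, so the probe sets of Wnt4 disagreed in size. Wnt6, which surface ectoderm of the mouse embryo makes, lay between 6.54 and 7.17 on all arrays, and its group means differed by up to 0.36, less than the gap of 0.51 between its replicates in MES D4.

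Wnt2b, a ligand that acts in liver specification in zebrafish, lay between 6.35 and 7.50. Its highest values were 7.50 and 7.33 in MES D4, above the other 14 arrays. MES D4 minus MP D4 was 0.62 ± 0.15 (adjusted p = 0.0482, limma), DE D4 minus MES D4 was −0.66 ± 0.15 (adjusted p = 0.00868, limma), and MES D4 minus ES was 0.69 ± 0.15 (adjusted p = 0.00673, limma), all below the threshold on the fold change. The window of Wnt2b held the reverse complement of a T-box motif 152 bases before its start.

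The comparisons between sorted populations called from 0 to 3 of the 9 ligands. DE D4 against MES D4 called 3 of 9 (Wnt3, Wnt5a and Wnt8a, all lower in DE), where 5.88% of all probe sets were called. The median log2 fold change of the 9 was −0.65, and that of all genes tested was 0.02. DEP against MP called 1 of 9 at D4 (3.08% of probe sets) and 1 of 9 at D2 (0.903%), Wnt5a on both days. DE against DEP called 2 of 9 at D4 (4.8%), with Wnt5a higher and Wnt8a lower in DE, and 1 of 9 at D2 (2.8%), with Wnt8a lower in DE. MES D4 against MP D4 called 0 of 9 (1.1%), with 2 at an unadjusted and an adjusted p under 0.05 (limma). These were Wnt3 (0.57, adjusted p = 0.0498, limma) and Wnt2b (0.62, adjusted p = 0.0482, limma), both below the threshold on the fold change. Between days, D4 against D2 called Wnt5a in DE (1 of 9, 1.38% of probe sets), Wnt8a in DEP (1 of 9, 0.294%), and Wnt5a and Wnt8a in opposite directions in MP (2 of 9, 1.79%).

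Against ES, the calls were 3 of 9 in DE D4 (8.76% of probe sets), 3 in DE D2 (6.65%), 3 in DEP D4 (4.51%), 4 in DEP D2 (3.64%), 2 in MES D4 (5.67%), 2 in MP D4 (5.46%) and 2 in MP D2 (4.1%). Wnt3 and Wnt11 were higher and Wnt5a lower in DE on both days. DEP D4 had Wnt3 and Wnt8a higher and Wnt5a lower, and DEP D2 had Wnt11 higher as well. In MES D4 and MP D4 the calls were Wnt3 and Wnt5a, both higher, and in MP D2 Wnt3 and Wnt8a, both higher. These 7 comparisons share the same 2 ES arrays, and the ES cells differed from the sorted cells in sorting, medium and feeders too. The tests of a change with the day called 1 of 9 for DEP minus MP (Wnt5a, 1.38% of probe sets) and 2 of 9 for DE minus DEP (Wnt5a and Wnt8a, 0.731%).

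**Figure D3:**
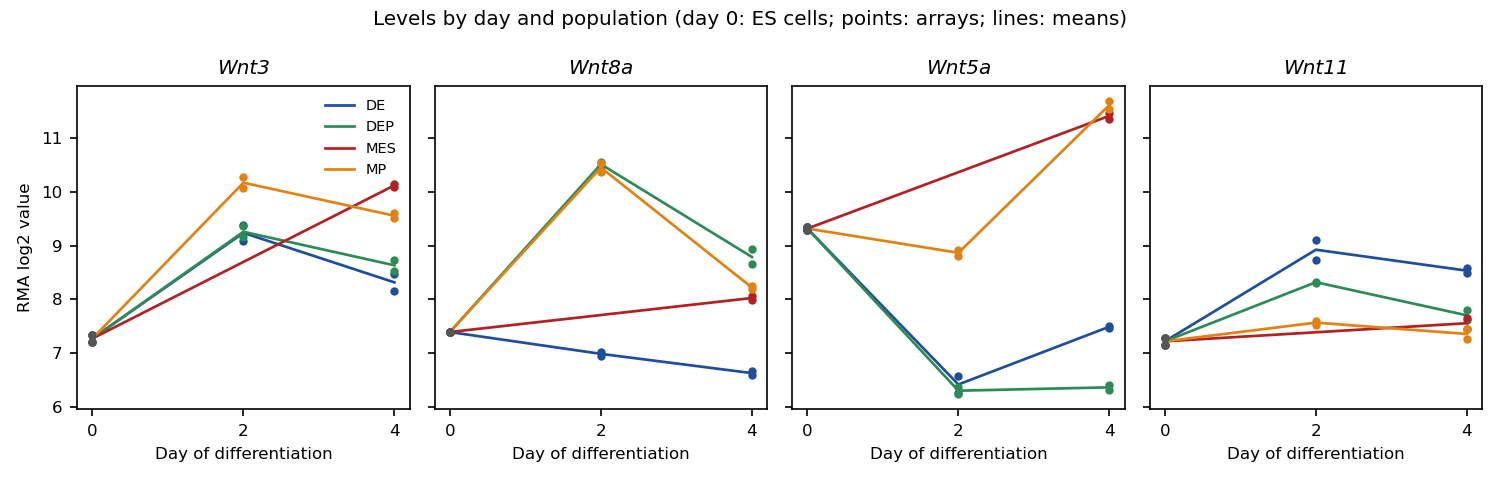
RMA log2 value (vertical axis) of Wnt3, Wnt8a, Wnt5a and Wnt11 by day of differentiation (horizontal axis, day 0 being ES cells), with each array as a point and lines through the means of DE, DEP, MES (no sample at day 2) and MP. Wnt8a of DEP and MP peaks at day 2 with means of 10.51 and 10.45, and Wnt5a of MP reaches 11.62 at day 4, while the Wnt5a mean of DEP stays at 6.30 and 6.36 on days 2 and 4.

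The other 10 Wnt ligands of the mouse were read in the same way. Wnt2, which acts with Wnt2b in lung specification in the mouse, had 7.80 and 7.82 in MES D4 and 6.41 to 7.19 on the other 14 arrays. It was lower in DE D4 than in MES D4 (−1.05 ± 0.20, adjusted p = 0.00223, limma) and higher in MES D4 than in ES (1.35 ± 0.20, adjusted p = 4.36e-04, limma). The remaining 9 were not called in any of the 18 comparisons (9 of 162 at an unadjusted p under 0.05, limma), and the largest of their log2 fold changes was 0.40 in size. In RefSeq no protein-coding gene lies between Wnt3 and Wnt9b, Wnt3a and Wnt9a, or Wnt6 and Wnt10a, and none of these neighbours was called.

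Genes that process and release Wnt proteins differed between the lineages in both directions. In DE D4 against MES D4, 2 of 6 were higher and 2 lower (5.88% of all probe sets called), with a median of −0.09 against 0.02 for all genes. Wls, the carrier that brings Wnt proteins to the cell surface, was lower in DE D4 than in MES D4 (−1.40), in DEP D4 than in MP D4 (−1.61) and in DEP D2 than in MP D2 (−1.14, adjusted p = 0.0472, limma). Porcn, the enzyme that attaches the lipid, was higher in DE D4 than in MES D4 (1.53) and in DE D4 than in DE D2 (1.19). The DE D2 replicates of Porcn lay apart, at 8.71 and 9.72, against 10.36 and 10.44 in DE D4. Gpc4, a cell surface glypican, was higher by 5.85 in DE D4 than in MES D4 and by 3.64 in DEP D4 than in MP D4. Gpc3 was higher in DE than in DEP, by 1.57 at D4 and 2.08 at D2, but was not particular to endoderm. Its values were 12.54 and 12.62 in DE D4 and 12.83 and 12.77 in MES D4. They were 10.97 and 11.06 in DEP D4 and 12.49 and 12.27 in MP D4.

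Of 16 Frizzled receptors and co-receptors, 4 were higher and 3 lower in DE D4 than in MES D4 (5.88% of all probe sets called), with a median log2 fold change of −0.10 against 0.02 for all genes. Fzd8 and Fzd5 were higher by 4.55 and 4.17 and Ror1, a relative of the Wnt5a receptor Ror2, by 2.48, while Fzd10 was lower (−1.61). In DEP D4 against MP D4 the values were 1.56 for Fzd8, 1.80 for Fzd5, 1.12 for Ror1 and −1.81 for Fzd10, all called. Of the 9 R-spondins and their receptors, Rspo3, which enhances Wnt signals, was lower in DE D4 than in MES D4 (−4.43), in DEP D4 than in MP D4 (−2.85) and in DEP D2 than in MP D2 (−1.80). Its receptor Lgr5 was higher in DEP D2 than in MP D2 (1.06), and Rnf43, a ubiquitin ligase that removes Frizzled proteins, was higher in DE D4 than in MES D4 (1.06).

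Of 14 secreted Wnt inhibitors, 5 were higher and 1 lower in DE D4 than in MES D4 (5.88% of all probe sets called), with a median of 0.21 against 0.02 for all genes. Cer1, which in the frog binds Nodal, BMP and Wnt proteins, was higher by 6.82, and Cer1 is also one of the endoderm markers used above. The Frizzled-related proteins Sfrp5, Sfrp1 and Frzb, which bind Wnt proteins outside the cell, were higher by 5.41, 3.02 and 2.32. In DE against DEP, 5 of 14 were higher and 1 lower on each day (4.8% of all probe sets called at D4 and 2.8% at D2), and the values at D2 were 2.91 for Cer1, 3.23 for Sfrp5, 2.34 for Sfrp1 and 3.83 for Frzb. Frzb was lower in DEP D2 than in MP D2 (−1.88).

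Of 17 canonical Wnt targets tested, 10 were lower and 1 higher in DE D4 than in MES D4 (5.88% of all probe sets called), with a median of −1.23 against 0.02 for all genes. In MES D4 against ES 13 of 17 were higher and 0 lower (5.67% of all probe sets called), with a median of 1.33 (0.04 for all genes). The list holds 2 of the mesoderm markers (Msgn1 and Tbx6), and Rspo3, Lgr5, Rnf43 and Znrf3 stand in it and in the R-spondin list. Lef1, a partner of β-catenin on DNA, was lower in DE than in MES at D4 (−3.74) and lower in DE than in DEP, by 2.84 at D4 and 2.36 at D2. Cdx2, a posterior homeobox gene, was lower in DEP D4 than in MP D4 (−4.08) and in DE D4 than in MES D4 (−2.69). Mixl1, a streak homeobox gene, was lower in DE D4 than in MES D4 (−1.23) and higher in DE D2 than in DEP D2 (1.28). All differences of pathway genes given as higher or lower passed both thresholds.

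**Figure D4:**
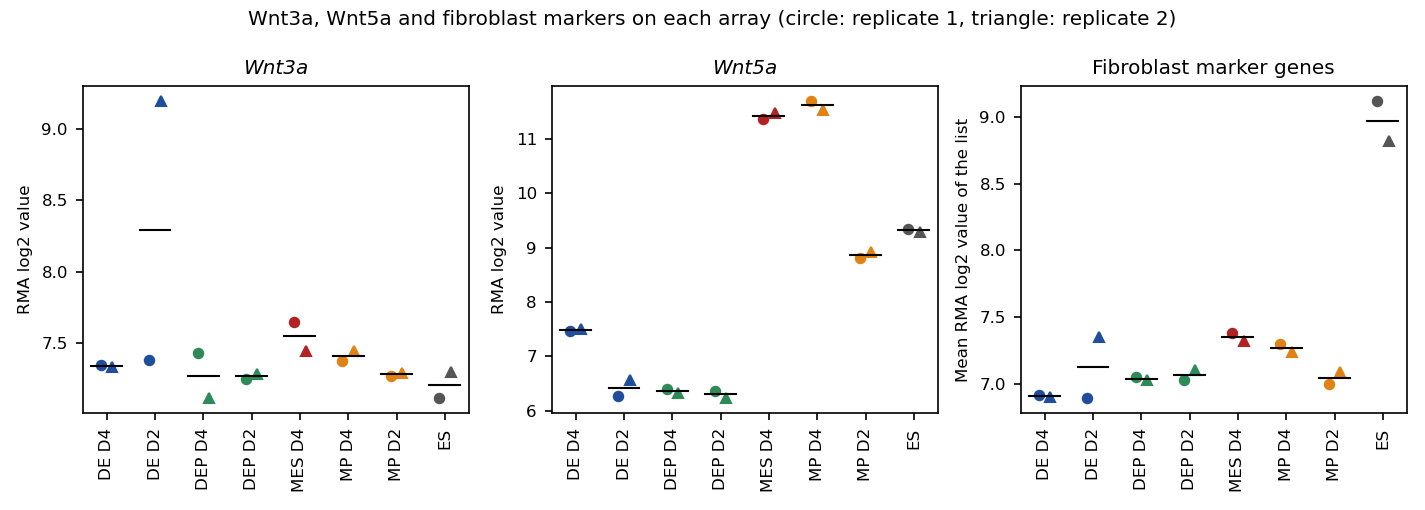
RMA log2 values of Wnt3a and Wnt5a (left and middle vertical axes) and the mean RMA log2 value of 23 fibroblast markers (right vertical axis) on each array, by population and day (horizontal axes), with replicate 1 as a circle, replicate 2 as a triangle and the mean as a bar. Replicate 2 of DE D2 stands out with a Wnt3a value of 9.19 and a marker mean of 7.35, against 7.38 and 6.89 on replicate 1, and the ES arrays have the highest marker means, 9.12 and 8.82.

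For the 3 ligands called in the 9 comparisons between sorted populations, the genes of most similar pattern were found by Pearson's correlation over the 8 group means, which share their arrays. The genes nearest to Wnt5a were Nrp2, a semaphorin and VEGF co-receptor (r = 0.978, group means spanning 3.67), Aida, Tmem209, Ccdc3 and Rcn2, the last 4 spanning 0.37 to 1.06. The nearest to Wnt8a were the ephrin receptor Epha1 (r = 0.991, spanning 2.36), Rbfox1, Prob1, Rdh10 and Efr3a. The nearest to Wnt3 were Cnpy3 (r = 0.973), Phb2, Aptx, Hddc2 and 4933430I17Rik, whose group means spanned only 0.32 to 0.51.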

How the data were processed

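The log2 values, 1 for each probe set on each array, were deposited after the authors had run robust multichip averaging (oligo 1.48.0) over all 16 arrays, so background correction, quantile normalization and probe summarization are already in the values. The scanner files were not used. All arrays share a common distribution, which hides changes in the amount of RNA per cell and shrinks the differences of dim genes. The number of arrays limits the precision.

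The 32000 of 35556 probe sets with the highest mean were kept and fitted with limma 3.58.1 in R 4.3.3 (1 mean per group, eBayes without trend or robust estimation). The 18 comparisons were 9 between sorted populations, 7 with ES and 2 changes with the day, and 28 group pairs gave the order of levels. Benjamini–Hochberg adjustment was made within each comparison. Gene symbols came from the platform annotation (18716 genes tested). A planned reference to silent genes was dropped, since probe sets differ in affinity.

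The text names the 9 ligands, other Wnt ligands called, up to 4 members of each pathway list (those called in most of the 9 comparisons between sorted populations) and the 5 genes most like each ligand called there. Marker genes, genes shared between lists and neighbours on the chromosome were named beside a result after their values were seen. Members and lists were chosen with earlier results of these data known. Tcf7 and Fbn1 had no probe set of their own, and Lum and Fap were below the filter and enter only the marker sums. On simulated data for DEP D4 minus MP D4 (32000 probe sets), 94% of changes of 1.5, 97% of 2 and 98.5% of 3 on the log2 scale were called, with 4 of 31800 unchanged ones. Alternatives covered the filter, the eBayes options, the call rule, the samples in the fit, the centring, the replicate block, each array left out and other probe sets.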

Additional observations from a re-analysis of the deposited data

Results flagged for a closer look

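The effect of a contrast differed between days for Wnt5a and Wnt8a, by a test of the difference itself (limma, interaction contrast). The difference of Wnt5a between DEP and MP was larger at D4 than at D2 (change −2.69, adjusted p = 1.95e-05). All 4 arrays of DEP lay between 6.23 and 6.41, while MP had 11.70 and 11.54 at D4 and 8.81 and 8.92 at D2. The difference of Wnt5a between DE and DEP changed by 1.01 with the day (adjusted p = 0.0103), and that of Wnt8a by 1.37 (adjusted p = 0.00157), where DEP had 8.93 and 8.65 at D4 and 10.48 and 10.55 at D2.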

How the results depend on the processing

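Each result was recomputed with the 16000 or all probe sets, trend and robust estimation, median-centred arrays, only the groups compared, the replicate number as a block, other call rules and each array left out in turn. Of 1004 recomputed single-ligand values 967 kept their direction and their side of the threshold, 21 lost the call, 16 gained it and 0 changed direction. With no threshold on the fold change (adjusted p alone), the calls were 6 of 9 for DE D4 minus MES D4 (20.6% of all probe sets), 4 for DEP D4 minus MP D4 (9.02%), 3 for DEP D2 minus MP D2 (2.4%), 2 for DE D2 minus DEP D2 (9.32%), 2 for MES D4 minus MP D4 (3.58%), 2 for DE D4 minus DE D2 (6.57%), 5 for MES D4 minus ES (20.5%) and 4 each for MP D4 (20.7%) and MP D2 minus ES (14.9%). With the fold change tested against 1 (treat), they were 1 for DE D4 minus DEP D4 (1.59%), 0 for DE D4 minus DE D2 (0.0781%) and for DEP D4 minus DEP D2 (0.00625%), 1 each for DE D4 (3.62%) and DEP D4 minus ES (1.35%), and 0 for the change of DE minus DEP with the day (0.00625%). Under treat, Wnt8a also lost its call in DE D4 minus MES D4 (adjusted p = 0.0539, limma treat), where 2.41% of all probe sets were called. Wnt11 lost its call in DEP D2 minus ES under treat (1.16% of all probe sets called). Fitted on only the groups compared, DE D4 minus DE D2 had 0 calls and the change of DE minus DEP with the day had 1. Leaving out 1 array gave 3 to 4 calls for DE D4 minus MES D4 and for DE D2 minus ES. For DE D4 minus ES it gave 2 to 3. It gave 1 to 2 calls for DEP D4 minus MP D4, for DEP D2 minus MP D2 and for DE D2 minus DEP D2. It also gave 1 to 2 for DE D4 minus DE D2 and for the change of DE minus DEP with the day. In the last, Wnt5a lost its call without replicate 1 or 2 of DE D4 (1.03 and 0.99), replicate 1 of DEP D2 (0.94), replicate 2 of DEP D4 (0.97) or replicate 1 of DE D2 (0.86). The cause was not tested. Replicate numbers showed no strong pairing of the samples, as the difference of replicate 1 and 2 correlated between groups at −0.20 to 0.25 (8 of 28 pairs over 0.1). These correlations cannot show whether some samples shared a differentiation. With the replicate block all counts stayed the same, such as 3 of 9 for DE D4 minus MES D4, and no single call changed. With the 16000 probe sets, Wnt3a, Wnt6 and Wnt2b were not tested.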
